A study of Mus musculus with 26 samples.

Results

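The comparison asks in which genes the response of MC38/gp100 cells to the PRMT5 inhibitor MRTX1719 depended on whether Mtap was knocked out. MC38 was derived from a mouse colon adenocarcinoma, the MC38/gp100 cells also carry a melanoma antigen, gp100, and 11 of the 26 libraries of the series belong to the comparison. Wild-type (WT) cells had DMSO in 3 libraries and 0.5 uM MRTX1719 in 2 (replicates 1 and 3), and Mtap knockout (KO) cells had DMSO in 3 and 0.5 uM MRTX1719 in 3. Both lines carry gp100 and all groups were treated for 5 days, and poly(A) RNA was sequenced from directional libraries. The labels do not say whether the KO line is 1 clone or how it was edited, nor whether replicates are separate cultures, so the p-values rest on the spread among libraries alone, and that spread may be technical.

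MTAP is the enzyme of methionine salvage that clears methylthioadenosine (MTA), a by-product of polyamine synthesis. Cells without it accumulate MTA, which occupies the site of S-adenosylmethionine (SAM) on the arginine methyltransferase PRMT5. MRTX1719 was designed to bind PRMT5 together with MTA, whereas GSK3326595 does not depend on MTA. PRMT5 places symmetric dimethylarginine on splicing proteins, histones and other substrates, and its loss is known to change the splicing of Mdm4, a restraint on p53.

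Counts per library ran from 19302768 to 27786226, and the median absolute distance of these 11 libraries from the others of their group was 0.053 to 0.062 on the log2 scale. KO GSK3326595 replicate 1, used only in the inhibitor comparison at the end, was farther off (0.071, and a chi-square per gene of 2.75 to 2.83 against its partners, with at most 1.97 in any other pair). Levels are given as CPM, counts scaled to the same library size, group mean ± SD (n = 3 libraries, and 2 for WT with MRTX1719), effects as log2 fold changes ± SE, and the interaction as the effect in KO cells minus that in WT cells. A gene was called at an adjusted p under 0.05 in edgeR's quasi-likelihood test (Benjamini-Hochberg, over all 14835 genes tested), and every adjusted p below is from that test. Epithelial markers were mostly near 0, with Epcam at 0 and Cdh1 and Krt18 at most 0.916 and 0.552 CPM in any library, while Krt8 ran from 14.0 to 59.3 CPM. The 8 fibroblast and endothelial markers summed to 2775 to 8980 CPM, mostly from Col3a1, Col1a1 and Dcn, while Kdr and Pecam1 of the endothelium were at most 0.0378 and 0.485 CPM, and the 7 leukocyte markers to 1.70 to 2.69 CPM. Thus the defining epithelial markers of a colon carcinoma are absent or nearly so, matrix genes are abundant, and leukocyte RNA is close to the floor.

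MRTX1719 changed many genes in KO cells and few in WT cells, and most differences between the lines came from genes that moved in KO cells alone by these calls. The interaction was called for 8627 genes (58.2% of those tested), 4494 higher in KO (30.3%) and 4133 lower (27.9%). With upper quartile scaling that split was 3528 higher and 5069 lower. The shares of 30.3% and 27.9% are the background for each count of list members called higher or lower in the interaction below. At least 2-fold interactions numbered 1469 (9.9%) and were more often negative, with 482 higher (3.25%) and 987 lower (6.65%). MRTX1719 against DMSO was called for 10464 genes in KO cells (70.5%) and for 1117 in WT cells (7.53%), and 1779 (12%) and 18 (0.121%) genes moved at least 2-fold. Without WT MRTX1719 replicate 1 or 3 the WT count was 433 or 510, where the library that is left is taken to vary as the other groups do. The median absolute effect over all genes was 0.349 in KO and 0.078 in WT cells.

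**Figure D1:**
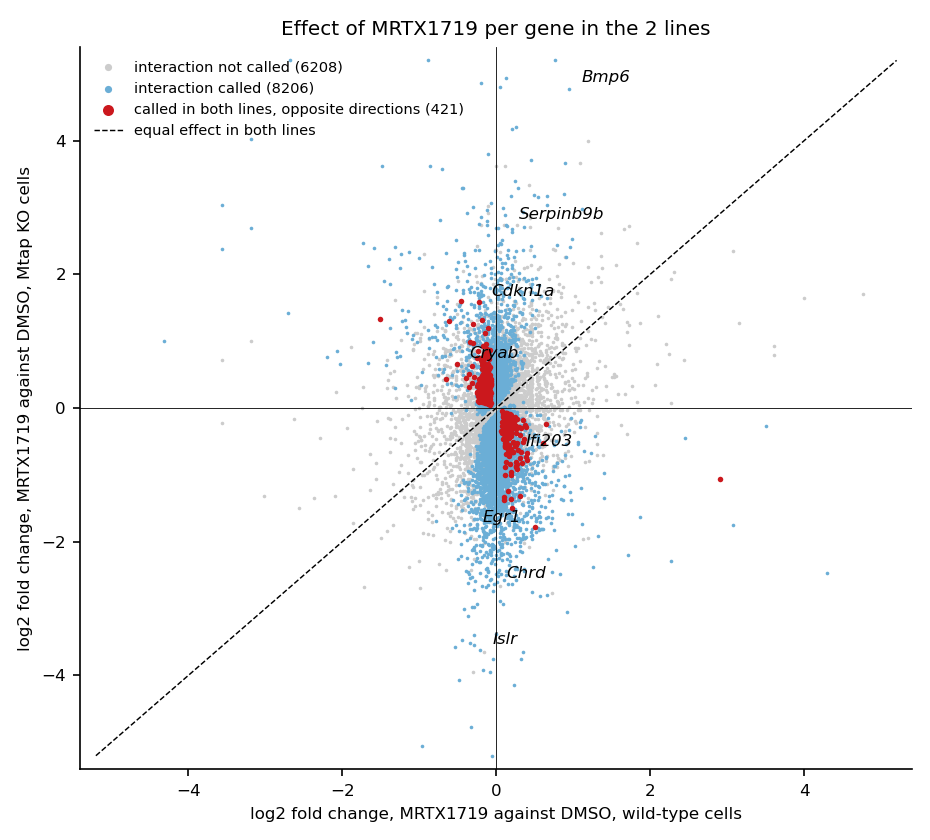
Each point is 1 of the 14835 genes, with the log2 fold change of MRTX1719 against DMSO in WT cells (horizontal) and in KO cells (vertical); grey points were not called in the interaction, blue and red points were, and red ones were also called in both lines with opposite signs, and 4 points beyond 5.2 are drawn at the edge. The cloud is tall and narrow, away from the dashed line of equal effects, and the 421 red points lie in the 2 quadrants of opposite sign.

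Of the 8627 called genes, 7550 (87.5%) were called in KO cells and not in WT cells. Another 364 moved the same way in both lines with the larger effect in KO cells, and 5 with the larger effect in WT cells. Opposite calls in the 2 lines were found at 421 genes (4.88%), 254 of them higher and 167 lower in KO cells, a count that fell to 151 and 184 without WT MRTX1719 replicate 1 and 3. The WT call alone passed at 84 genes, and neither line's at 203. Across the 14835 genes the effects in the 2 lines had a Pearson r of 0.051, and of 0.130 over the 10235 genes at 5 CPM or more (genes are not independent replicates).

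Mtap itself, the edited gene, was lower in every KO library than in every WT library. It stood at 388, 393 and 397 CPM in WT cells with DMSO and 399.6 and 399 with MRTX1719. In KO cells it was 264, 274 and 276 with DMSO and 203, 206 and 205 with MRTX1719, so that MRTX1719 went with a further fall there (effect -0.41 ± 0.023; interaction -0.43 ± 0.033, adjusted p = 3.96e-24). Counts over the whole gene can include RNA that remains after editing, so they check the KO label only in part.

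The gene of the target itself moved little, and some genes of its partners and substrates moved more. Prmt5 rose slightly in KO cells (0.17 ± 0.030, adjusted p = 1.67e-07) and stood at 0.089 ± 0.030 in WT cells (adjusted p = 0.0517), and its interaction was not called (0.085 ± 0.043, adjusted p = 0.081). Of the 16 genes of the PRMT5 complex and its substrates, 8 were called higher in KO and 2 lower (30.3% and 27.9% of all genes). Their median interaction was 0.15 against 0.014 over all genes. The cofactor gene Wdr77 had an interaction of -0.32 ± 0.081 and the adaptor gene Riok1 -0.20 ± 0.058, while the adaptor gene Clns1a, which delivers Sm proteins, had 0.29 ± 0.047. The histone adaptor gene Coprs had the most positive value of the list (0.69 ± 0.11), going from 10.7 ± 0.470 to 17.3 ± 1.44 CPM in KO cells, with 14.7 ± 0.688 and 14.7 ± 0.529 CPM in WT cells. The Sm protein genes Snrpd1 and Snrpd3 (0.43 and 0.34) and the assembly gene Smn1 (0.52) were also called higher. Under upper quartile scaling 4 members were called lower in place of 2.

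Among the other arginine methyltransferases 6 of 7 tested genes were called lower and 1 higher, Prmt2 (0.44 ± 0.068). Prmt3, which acts on a ribosomal protein, Prmt9, a splicing factor methyltransferase, and Carm1, a coactivator, had -0.35, -0.31 and -0.29. Prmt7 differed in kind, since it rose in WT cells (0.22 ± 0.032) and not in KO cells (0.048 ± 0.035, adjusted p = 0.213). Its interaction (-0.17 ± 0.047) lost the call without WT MRTX1719 replicate 1 (-0.12, adjusted p = 0.0537).

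Around the lesion itself, 4 of 17 methionine and SAM cycle genes were called higher and 6 lower, shares near those of all genes (30.3% and 27.9%). Mat2a encodes the enzyme that makes SAM. Its level was 241, 243 and 245 CPM in WT cells with DMSO and 237 and 231 with MRTX1719, and it fell in KO cells from 319.7, 321 and 319.6 to 169, 174 and 173. The KO groups are far apart and the WT groups lie close together (interaction -0.84 ± 0.035, adjusted p = 9.68e-49). Mri1, the salvage enzyme that follows MTAP, was lower (-0.55 ± 0.067), and Cth, the last enzyme of transsulfuration, was higher (0.60 ± 0.059).

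Polyamine genes, which supply the MTA, were called higher at 7 of 13 members and lower at 3. Sat1, the acetyltransferase that starts polyamine breakdown, was among the 4 genes with the smallest p of those higher in KO cells. It ran 111, 112 and 112 CPM in WT cells with DMSO, 97.3 and 99.4 with MRTX1719, 79.4, 83.3 and 80.5 in KO cells with DMSO and 197, 210.1 and 202 with MRTX1719. No groups overlap, and the moves are opposite, down in WT cells (-0.18 ± 0.033) and up in KO cells (1.32 ± 0.030; interaction 1.51 ± 0.045, adjusted p = 3.17e-65). Amd1, which makes the aminopropyl donor, and the antizyme inhibitor gene Azin1 were higher (0.47 ± 0.052 and 0.59 ± 0.038), whereas Azin2 was lower (-0.99 ± 0.13).

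The genes with the most positive interactions included those of secreted, surface and signalling proteins. Bmp6, a bone morphogenetic protein, was at 0.211, 0.189 and 0.304 CPM in WT cells with DMSO, 0.415 and 0.492 with MRTX1719, 0.513, 0.688 and 0.745 in KO cells with DMSO and 16.6, 19.7 and 18.1 with MRTX1719. Of these 4 groups only KO cells with MRTX1719 were above 1 CPM, which alone carried Bmp6 past the minimum of 5 CPM, so its place in the order is a description. KO cells with GSK3326595 had 3.42, 3.89 and 4.66 CPM and WT cells with GSK3326595 1.001, 0.847 and 0.812. The interaction was 3.83 ± 0.58 (adjusted p = 4.67e-09). Serpinb9b, a serpin of the granzyme inhibitor clade, was at 40.2, 41.1 and 40.8, then 42.6 and 46.5 CPM in WT cells, and at 25.7, 26.1 and 26.5, then 172, 175 and 173 in KO cells. Its KO groups stand far apart while its WT groups differ by a few CPM (2.60 ± 0.060, adjusted p = 9.72e-79). Serpin paralogs of that cluster are close in sequence, so reads may be shared among them. Tigit, an inhibitory receptor better known on T cells, started lower in KO cells (2.41, 3.16 and 2.24 CPM) than in WT cells (9.46, 10.4 and 9.52) and ended higher (17.05, 14.98 and 16.9 against 12.0 and 10.6; 2.42 ± 0.15). Leukocyte markers were near the floor in the same libraries, as given above.

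Krt8, a keratin of simple epithelia and the single abundant epithelial marker here, ran 23.2, 21.7 and 24.4 CPM in WT cells with DMSO, 24.4 and 23.6 with MRTX1719, 14.2, 14.0 and 15.1 in KO cells with DMSO and 57.5, 58.3 and 59.3 with MRTX1719. The WT groups overlap, and KO cells moved from below them to above them (1.96 ± 0.080, adjusted p = 3.19e-49). Its partner Krt18 stayed at or under 0.552 CPM in every library. Il1rl1, the IL-33 receptor, rose in KO cells from 159.9 ± 5.14 to 592 ± 3.41 CPM and in WT cells from 85.6 ± 0.910 to 94.2 ± 0.986 (1.75 ± 0.041). Cd44, the hyaluronan receptor, went from 226 ± 4.10 to 502 ± 10.8 in KO cells, a level close to that of WT cells, which had 472 ± 1.499 and 458 ± 0.246 (1.19 ± 0.031). The other 6 of the 10 most positive genes were Rbm47, an RNA-binding protein (2.24), Cox6a2, a muscle isoform of a cytochrome oxidase subunit (2.16), the growth factor gene Pdgfc (2.09), the PI3-kinase regulatory gene Pik3r5 (2.06), and the matrix protein genes Ccn3 (1.94) and Npnt (1.89). Each had a WT effect between -0.20 and 0.20 that was not called. Rbm47, Pik3r5, Ccn3 and Npnt, like Bmp6, passed the minimum of 5 CPM only through KO cells with MRTX1719, so their places are a description. In WT cells with DMSO and with MRTX1719, Pik3r5 had 73 and 46 counts in all and Ccn3 54 and 45, which limits those WT effects.

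**Figure D2:**
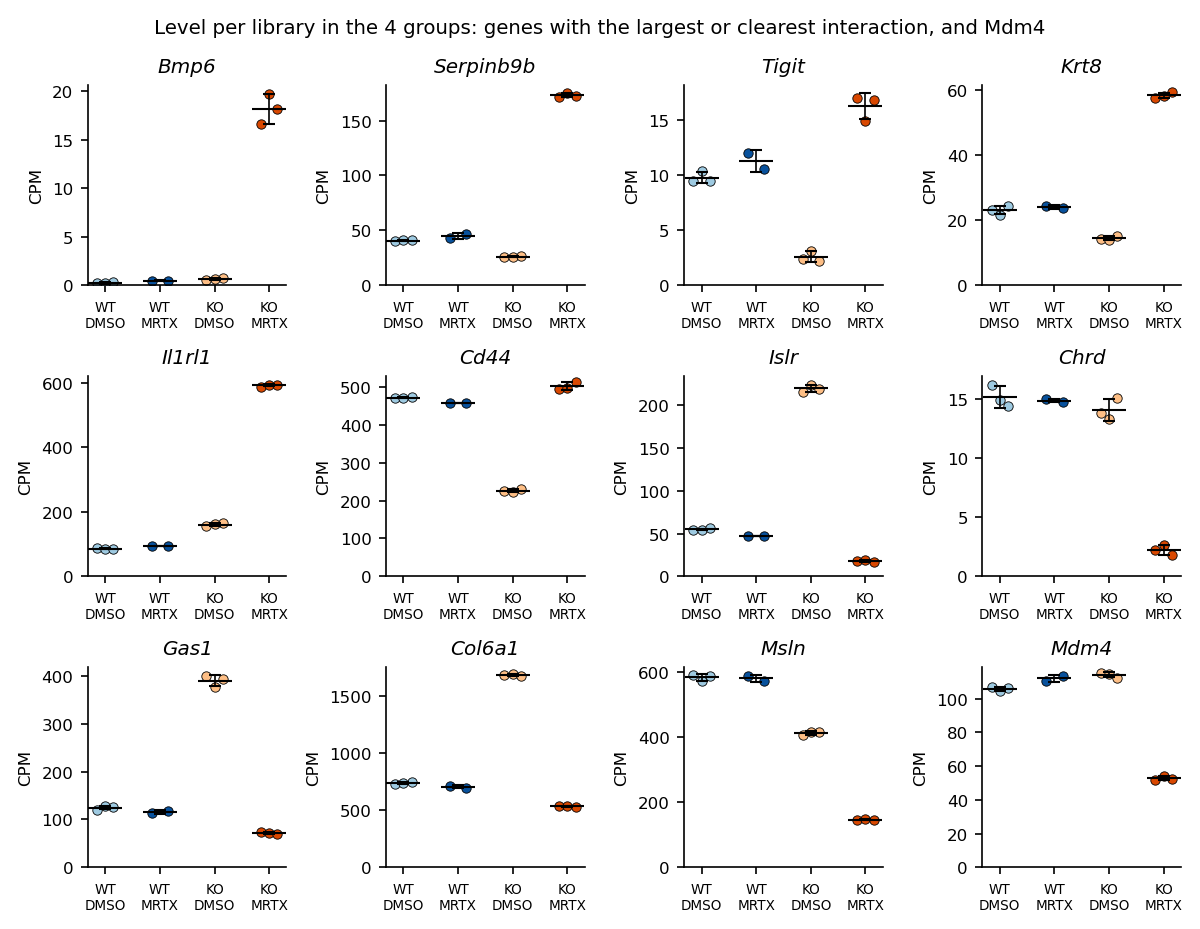
Level in CPM (linear axes from 0) of 12 genes in each of the 11 libraries, by group; points are libraries, bars the group mean and SD. In each panel the KO groups are clearly apart, whereas the WT groups overlap or lie close together, as for Krt8 at 21.7 to 24.4 CPM in WT cells against 14.0 to 59.3 CPM in KO cells.

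The most negative interactions included matrix and developmental signalling genes. Islr, the mesenchymal surface protein also called meflin, was at 54.1, 54.4 and 56.0 CPM in WT cells with DMSO and 47.1 and 47.3 with MRTX1719. In KO cells it fell from 216, 224 and 219.6 to 18.0, 18.6 and 17.1, from far above the WT libraries to far below them (-3.40 ± 0.063, adjusted p = 2.86e-90). Gas1, a coreceptor for hedgehog ligands, showed the same order of groups, with 389.6 ± 11.9 and 71.5 ± 1.98 CPM in KO cells and 125 ± 3.74 and 115 ± 3.91 in WT cells (-2.33 ± 0.044). Chrd, the BMP antagonist chordin, had like levels in the other 3 groups, 15.2 ± 0.942, 14.9 ± 0.139 and 14.1 ± 0.940 CPM, and was at 2.24, 2.61 and 1.83 in KO cells with MRTX1719 (-2.61 ± 0.14, adjusted p = 1.59e-36). Adgrl1, an adhesion receptor, fell from 49.3 ± 0.702 to 9.21 ± 0.555 CPM (-2.29 ± 0.072), and Tle2, a corepressor, from 15.4 ± 0.903 to 2.68 ± 0.322 (-2.39 ± 0.16).

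Other genes of that group were Hyi (-2.33), the methyltransferase gene Inmt (-2.59), 1700029J07Rik (-2.52), 9630013A20Rik (-2.48), and Fos (-2.29), which is described with the immediate early genes. Inmt started lower in KO cells (2.81 against 10.9 CPM), so that in CPM, not in folds, it lost 0.244 more in WT cells. 9630013A20Rik passed the minimum of 5 CPM only through KO cells with DMSO, which had 13.0 CPM. Inmt passed it only through WT cells, so the places of both are a description. By the smallest p values the collagen VI genes Col6a1 and Col6a2 came first with Islr and Msln. Col6a1 went from 1688, 1698 and 1681 to 535, 537 and 529.9 CPM in KO cells, and from 731, 743 and 749 to 715 and 698 in WT cells (-1.59 ± 0.028), and Col6a2 had -1.56 ± 0.029. Msln, the surface antigen mesothelin, was not called in WT cells, with 583 ± 9.74 and 581 ± 11.4 CPM, and fell in KO cells from 413 ± 5.02 to 146 ± 1.97 (-1.49 ± 0.032, adjusted p = 1.2e-82).

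Mdm4, whose splicing is a known readout of PRMT5, was at 107, 105 and 107 CPM in WT cells with DMSO, 111 and 113 with MRTX1719, 115, 115 and 112 in KO cells with DMSO and 52.0, 54.2 and 52.1 with MRTX1719. KO cells with MRTX1719 had less than any library of the other groups (-1.19 ± 0.049, adjusted p = 5.24e-49), and counts per gene do not show splicing. Mdm2, the p53 ubiquitin ligase, was higher (0.37 ± 0.051), and Trp53 itself differed slightly, with 0.12 in KO and -0.091 in WT cells (0.21 ± 0.039), where the WT call was lost without WT MRTX1719 replicate 1 or 3. The MDM2, MDM4 and p53 regulator list had 4 members higher and 2 lower of 9, and its median was 0.040. Under upper quartile scaling 2 were higher and the median was -0.054, and without WT MRTX1719 replicate 3 1 was lower.

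Genes known as p53 targets went both ways, 14 called higher and 8 lower of 30 (30.3% and 27.9% of all genes), with a median of 0.21. Cdkn1a, the cell cycle inhibitor p21, was at 54.1, 52.3 and 51.0 CPM in WT cells with DMSO, 45.2 and 44.4 with MRTX1719, 10.4, 10.3 and 9.77 in KO cells with DMSO and 30.6, 30.8 and 29.9 with MRTX1719. It fell in WT cells (-0.23 ± 0.047) and rose in KO cells (1.59 ± 0.063), where it still lay below every WT library (interaction 1.81 ± 0.080, adjusted p = 3.22e-46). Eda2r, a death-domain receptor, rose in both lines, by 1.63 in KO and 0.37 in WT cells (1.26 ± 0.16). Gdf15 and the transporter gene Abcb1a had larger interactions (3.72 ± 0.54 and 2.76 ± 0.42) at 0.137 to 1.96 CPM in group means. Lower members included Fdxr (-0.78), Rrm2b (-0.73) and Psrc1 (-0.63), which serve electron transfer, nucleotide supply and the spindle.

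Interferon-stimulated genes, the antiviral program that type I and II interferons switch on, were mostly called lower in KO cells and, where called, higher in WT cells. Of 48 members 35 were called lower in the interaction and 1 higher (Ifit2, 0.62 ± 0.048), with a median of -0.39 against 0.014 over all genes. In WT cells 20 were called higher and 0 lower, against 3.62% and 3.91% of all genes, with a median of 0.11. In KO cells 6 were called higher and 35 lower (37% and 33.6% of all genes), with a median of -0.21. Opposite directions were called at 17 members, and at 421 of all 14835 genes. Without WT MRTX1719 replicate 1 or 3, 15 or 12 members were called higher in WT cells and 11 or 9 in opposite directions.

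Oasl2, of the oligoadenylate synthetase family, was at 196, 199.8 and 199 CPM in WT cells with DMSO, 213 and 217 with MRTX1719, 142, 145 and 143 in KO cells with DMSO and 78.8, 76.3 and 78.3 with MRTX1719. It rose in WT cells (0.11 ± 0.028, adjusted p = 0.00375) and fell in KO cells (-0.88 ± 0.030), with no overlap between the groups of either line (interaction -0.996 ± 0.041, adjusted p = 8.42e-49). Without WT MRTX1719 replicate 3 the WT call of Oasl2 was lost. The ISG15 ligase gene Herc6 fell in KO cells alone by these calls, from 5.87 ± 0.731 to 2.29 ± 0.173 CPM, against 23.1 ± 0.381 and 22.3 ± 0.182 in WT cells (-1.30 ± 0.15). The ISG15-activating enzyme gene Uba7 was called in opposite directions (0.26 in WT and -0.55 in KO cells), as was Ifit1, which binds foreign RNA (0.14 and -0.53). Irf7, the master factor of the interferon response (-0.86), the virus tether Bst2 (-0.75) and the GTPase gene Irgm2 (-0.78) were called lower without a WT call. OAS, IFIT and guanylate-binding genes have close paralogs, so reads may be split among them.

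Nucleic acid sensors, which trigger interferon, followed the same order, with 11 of 17 members called lower, 2 higher and a median of -0.35, and Ifih1 is among the genes that both lists hold. In WT cells 6 were called higher and 0 lower (3.62% and 3.91% of all genes). These 6 were all called lower in KO cells (3 and 5 without WT MRTX1719 replicate 1 and 3), and opposite calls were made at 421 of all 14835 genes. Ifih1, the RNA sensor MDA5, was at 99.4, 99.03 and 103, then 109 and 109 CPM in WT cells, and at 67.2, 66.7 and 67.8, then 46.8, 48.7 and 47.6 in KO cells (-0.61 ± 0.051). Tlr3, the endosomal RNA sensor, was at 41.0, 42.8 and 43.8, then 48.8 and 48.0 CPM in WT cells, and at 42.4, 38.9 and 41.7, then 28.1, 26.1 and 26.7 in KO cells (-0.79 ± 0.068). The groups of a line do not overlap for either gene, but the WT call of Ifih1 was lost without WT MRTX1719 replicate 1 or 3 and that of Tlr3 without replicate 1. The sensor gene Ifi203 had 0.21 in WT and -0.66 in KO cells. Later steps went both ways: the adaptor gene Sting1 (0.36) and the kinase gene Tbk1 (0.55) were called higher, while Irf3 (-0.53) and Ikbke (-0.84) were called lower.

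Among MHC class I genes, which display peptides to CD8 T cells, 6 of 19 fell and 0 rose in WT cells (3.91% and 3.62% of all genes), and 15 fell and 3 rose in KO cells (33.6% and 37%). The interaction was called lower at 11 of 19 members and higher at 2, the peptide-loading chaperone genes Calr (0.69) and Pdia3 (0.25). B2m, the light chain, was at 1451, 1453 and 1427 CPM in WT cells with DMSO, 1186 and 1239 with MRTX1719, 918, 889 and 878 in KO cells with DMSO and 439.6, 434 and 432 with MRTX1719. Both lines moved down without overlap (-0.25 ± 0.021 and -1.04 ± 0.020; interaction -0.79 ± 0.028, adjusted p = 2.71e-55). The heavy chain gene H2-K1 fell from 1297 ± 28.1 to 1119.6 ± 45.4 CPM in WT cells and from 603 ± 25.6 to 266 ± 11.2 in KO cells (-0.97 ± 0.049), and its reads may be shared with other heavy chains. Psmb9, an immunoproteasome subunit, was not called in WT cells (-0.14) and fell in KO cells from 22.6 ± 0.370 to 8.61 ± 0.365 CPM (-1.25 ± 0.091). The transporter genes Tap1 and Tap2 had small interactions that were not called (-0.086 and -0.094, adjusted p = 0.0983 and 0.0842), and the activator gene Nlrc5 had 0.098 (adjusted p = 0.119).

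Because members of these pathways moved together, the bases before their start sites were searched for the elements that the pathways are known for, on both strands, with lists and motifs chosen after the values were seen. Sequences are RefSeq's, build GRCm38.p6, matched by symbol, in the 250 bases before each start. The interferon-stimulated response element, GAAANNGAAA, was present in 17 of 34 matched interferon-stimulated genes (50%) and in 3.46% of 27025 genes in the table. The cell cycle homology region, TTTGAA, was present in 9 of 25 mitosis genes (36%) against 18.3%, the E2F site TTTGGCGC in 3 of 27 replication genes (11.1%) against 0.485%, the heat shock pair GAANNTTC in 4 of 9 heat shock genes (44.4%) against 7.73%, and the sterol element TCACNCCAC in 1 of 17 cholesterol genes (5.88%) against 1.22%. Matches of a motif may overlap one another, none of the motifs contains another, and a match is a description of letters. Matched interferon-stimulated genes with the element had a median interaction of -0.36 and those without it -0.39, and in mitosis genes the medians were 0.30 and 0.41, so members with and without a match moved alike in direction. The sequences below are members with a match and 1 listed start, capitals marking the motif, 5′ to 3′ and ending at the base before the start. Irgm2 lies at chr11:58214727-58214976 on the plus strand, Ifit1 at chr19:34640639-34640888 on the plus strand, Kif11 at chr19:37376132-37376381 on the plus strand, Mcm6 at chr1:128359706-128359955 on the minus strand and Hspe1 at chr1:55087898-55088147 on the plus strand.
Irgm2: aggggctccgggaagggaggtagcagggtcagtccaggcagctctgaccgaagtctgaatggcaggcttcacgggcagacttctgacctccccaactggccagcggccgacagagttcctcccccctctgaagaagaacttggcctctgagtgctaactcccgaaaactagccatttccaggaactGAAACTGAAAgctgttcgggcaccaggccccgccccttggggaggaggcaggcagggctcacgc
Ifit1: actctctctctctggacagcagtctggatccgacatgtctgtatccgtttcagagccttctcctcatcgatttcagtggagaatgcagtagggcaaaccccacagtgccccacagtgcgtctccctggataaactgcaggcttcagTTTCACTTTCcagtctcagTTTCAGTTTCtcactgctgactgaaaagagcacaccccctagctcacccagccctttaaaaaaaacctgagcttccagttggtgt
Kif11: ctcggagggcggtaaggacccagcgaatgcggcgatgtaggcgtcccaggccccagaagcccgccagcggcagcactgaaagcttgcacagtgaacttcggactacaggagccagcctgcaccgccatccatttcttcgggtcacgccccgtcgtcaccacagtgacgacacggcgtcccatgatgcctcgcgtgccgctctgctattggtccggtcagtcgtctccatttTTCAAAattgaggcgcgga
Mcm6: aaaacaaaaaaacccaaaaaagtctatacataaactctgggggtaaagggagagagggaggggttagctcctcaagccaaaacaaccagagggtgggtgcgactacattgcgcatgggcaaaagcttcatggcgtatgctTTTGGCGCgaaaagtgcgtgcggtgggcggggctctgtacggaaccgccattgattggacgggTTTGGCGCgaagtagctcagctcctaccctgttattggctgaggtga
Hspe1: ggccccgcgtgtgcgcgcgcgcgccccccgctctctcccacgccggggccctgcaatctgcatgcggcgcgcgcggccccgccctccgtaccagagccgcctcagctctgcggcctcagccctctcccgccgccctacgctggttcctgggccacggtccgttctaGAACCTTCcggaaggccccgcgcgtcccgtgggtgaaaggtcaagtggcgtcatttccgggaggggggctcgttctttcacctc
Ifit1 and Mcm6 hold 2 matches each and the other 3 genes 1 each. Beside these letters stand interactions of -0.78 for Irgm2, -0.67 for Ifit1, 0.49 for the spindle kinesin gene Kif11, 0.54 for the helicase gene Mcm6 and 0.23 for the mitochondrial chaperonin gene Hspe1, the first pair lower and the other three higher.

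Mitosis genes were called higher in the interaction at 28 of 30 members and lower at 0 (30.3% and 27.9% of all genes), with a median of 0.40. In WT cells 14 were called lower and 0 higher (3.91% and 3.62% of all genes), and in KO cells 27 higher and 2 lower (37% and 33.6%). Calls in opposite directions were made at 12 members, and at 421 of all 14835 genes. Without WT MRTX1719 replicate 1 or 3 the WT count was 4 or 8 and the opposite count 2 or 6, with 1 of the WT DMSO libraries left out they were 8 or 9 and 6 or 7, and with no filter on low counts 8 and 6. Plk1, the polo-like kinase, was at 28.9, 30.2 and 26.2 CPM in WT cells with DMSO, 24.2 and 24.3 with MRTX1719, 67.4, 62.9 and 64.4 in KO cells with DMSO and 114, 120.1 and 116 with MRTX1719. Its WT libraries moved down and its KO libraries up without overlap (-0.23 ± 0.056 and 0.85 ± 0.035; interaction 1.08 ± 0.066, adjusted p = 1.77e-32), and the WT call was lost without WT MRTX1719 replicate 1. The Aurora kinase gene Aurka (0.63), the centrosome kinase gene Nek2 (0.63) and the spindle gene Hmmr (0.57) were called higher with no WT call. Mki67, the proliferation marker, had 0.20 in KO and -0.045 in WT cells, and Top2a fell slightly in both (-0.061 and -0.11).

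DNA replication genes were called higher at 23 of 33 members and lower at 3, with a median of 0.41 (5 to 7 lower with no filter, with only the 4 groups fitted or under upper quartile scaling). In WT cells 4 were called lower and 0 higher (3.91% and 3.62% of all genes), and 2 lower without WT DMSO replicate 1 or WT MRTX1719 replicate 3. Mcm10, an initiation factor, went from 47.5 ± 1.55 to 94.2 ± 3.47 CPM in KO cells and from 64.8 ± 1.495 to 59.8 ± 1.62 in WT cells (1.10 ± 0.054). The flap nuclease gene Fen1 (0.79), the loading factor genes Cdc6 (0.70) and Cdt1 (0.69), and the helicase genes Mcm2 to Mcm6 (0.38 to 0.67) were called higher. E2f1, a transcription factor of the G1/S step, went the other way (-0.79 ± 0.079), from 29.3 ± 1.85 to 17.8 ± 1.03 CPM in KO cells, while E2f2 was higher (0.66). Homologous recombination and Fanconi genes had 16 higher and 7 lower of 30 (30.3% and 27.9% of all genes). Among the former were Bard1, the partner of BRCA1 (0.87 ± 0.083), Exo1, which resects DNA ends (0.65), and Fancd2 (0.62).

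Heat shock genes, among them the mitochondrial chaperonin gene Hspe1, were called higher at 13 of 14 members and lower at 1. The lower one was the factor gene Hsf1 (-0.33), and the median of the list was 0.46. In WT cells 8 fell and 0 rose (3.91% and 3.62% of all genes), and in KO cells 12 rose and 2 fell (37% and 33.6%). Opposite directions were called at 7 members, and at 421 of all 14835 genes. Hsp90aa1 was at 1015, 994 and 1013 CPM in WT cells with DMSO, 941 and 922 with MRTX1719, 909, 937 and 967 in KO cells with DMSO and 1454, 1475 and 1502 with MRTX1719. The levels of the WT groups are close and those of the KO groups far apart (0.77 ± 0.029, adjusted p = 1.38e-46). Dnajb1, the cochaperone, fell in WT cells from 159 ± 3.46 to 124 ± 2.83 CPM and rose in KO cells from 99.3 ± 2.44 to 123 ± 1.30 (0.67 ± 0.044). Cryab, a small heat shock protein, fell from 61.3 ± 3.01 to 43.1 ± 1.46 CPM and rose from 33.2 ± 0.458 to 52.3 ± 2.21 (1.17 ± 0.065), and its KO libraries with MRTX1719 ended above its WT libraries with MRTX1719.

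**Figure D3:**
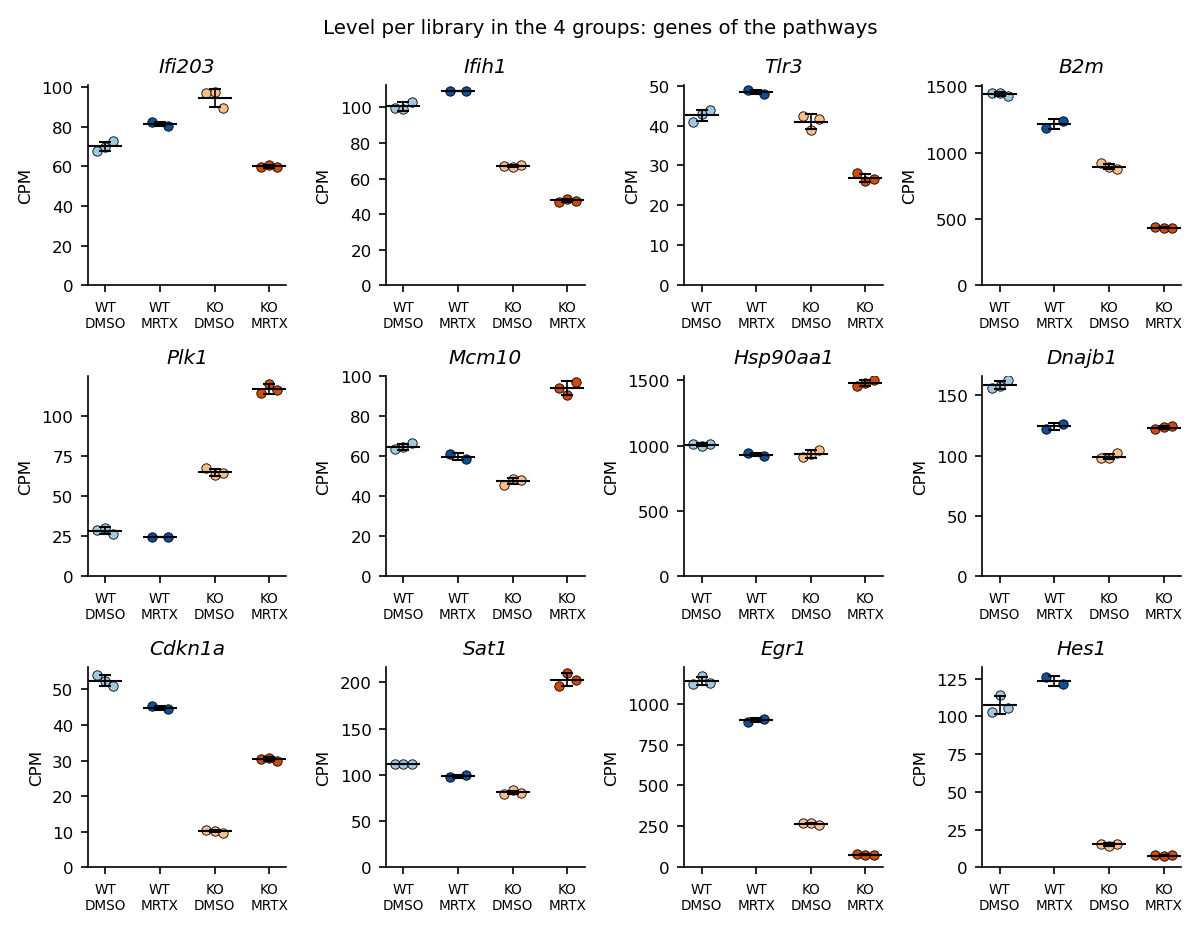
Level in CPM (linear axes from 0) of 12 pathway genes in each of the 11 libraries, by group; points are libraries, bars the group mean and SD. Ifi203, Ifih1, Tlr3 and Hes1 are higher with MRTX1719 in WT and lower in KO cells, Plk1, Dnajb1, Hsp90aa1, Cdkn1a and Sat1 are lower in WT and higher in KO cells, and B2m and Egr1 are lower in both.

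ER chaperone genes, which fold secreted proteins, were called higher at 17 of 19 members and lower at 2, with a median of 0.34. Calr, calreticulin, went from 994 ± 8.93 to 1576 ± 17.6 CPM in KO cells and was 774 ± 2.07 and 760.1 ± 2.56 in WT cells (0.69 ± 0.027). Creld2 and Sdf2l1 were also higher (0.83 and 0.84), whereas Xbp1, a transcription factor of that response, was lower (-0.71 ± 0.038). ATF4 targets, which serve amino acid supply, had 14 higher and 6 lower of 23. Atf3, a stress factor, rose in KO cells from 10.7 ± 1.14 to 20.2 ± 0.595 CPM and fell in WT cells from 81.6 ± 1.35 to 72.3 ± 0.639 (1.10 ± 0.079), a WT call lost without WT MRTX1719 replicate 1, while the folate enzyme gene Aldh1l2 fell in KO cells from 64.0 ± 1.57 to 28.9 ± 1.40 (-1.19 ± 0.052).

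Cholesterol synthesis genes were called higher at 17 of 23 members and lower at 2 (1 without WT MRTX1719 replicate 3), with a median of 0.28. Fdps, which makes farnesyl diphosphate, went from 119 ± 5.53 to 201 ± 6.82 CPM in KO cells, against 40.1 ± 1.57 and 39.1 ± 0.618 in WT cells (0.79 ± 0.061). Idi1 (0.70) and Msmo1 (0.67) were higher too, and the reductase gene Tm7sf2 was lower (-1.43 ± 0.16). Lysosome and autophagy genes had 15 higher and 3 lower of 24 (5 lower under upper quartile scaling), among the former the cholesterol exporter Npc1 (0.82 ± 0.055), the proton pump subunit Atp6v1h (0.63) and Lamp1 (0.51). Oxidative phosphorylation genes had 11 higher and 2 lower of 25 with a median of 0.083, and 6 higher and 6 lower with a median of -0.011 under upper quartile scaling (1 lower without WT MRTX1719 replicate 1).

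Glycolysis and hypoxia genes leaned the other way, with 14 of 23 members called lower, 5 higher and a median of -0.35. Pdk1, which keeps pyruvate from the mitochondrion, was at 177, 173 and 179, then 165 and 169.8 CPM in WT cells, and at 275, 292 and 280.2, then 123, 132 and 128 in KO cells. It moved from the highest group to the lowest in KO cells and by little in WT cells (-1.07 ± 0.039, adjusted p = 7.86e-55). The oxygen sensor gene Egln3 (-1.10 ± 0.045), Gpi1 (-0.81) and Pgk1 (-0.73) were lower, and Ndrg1 (0.95), the hexokinase gene Hk2 (0.63) and the glucose carrier gene Slc2a1 (0.47) were higher.

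Ribosomal protein genes were called lower at 19 of 25 members and higher at 0, with a median of -0.21. All genes whose symbols start with Rpl or Rps and a digit were also summed. They took 5.70% to 5.83% of the counts in KO cells with MRTX1719 against 6.82% to 7.02% in the other 3 groups. That sum leaves out Rplp0 and may hold genes of other proteins. Rplp0, a stalk protein, went from 2876 ± 31.2 to 1921 ± 25.6 CPM in KO cells and was 4252 ± 44.0 and 4187 ± 24.4 in WT cells (-0.56 ± 0.024). Rpl22l1, a paralog of Rpl22, had the most negative value (-0.92 ± 0.065), and pseudogenes of this family may share its reads. Ribosome biogenesis genes had 12 higher, 7 lower and a median of 0.086 (-0.0073 under upper quartile scaling), with Utp20 of the small subunit processome at 0.73 ± 0.046.

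Splicing regulators, several of which carry arginine methylation, were called lower at 16 of 25 members and higher at 5, with a median of -0.13 (2 higher and a median of -0.22 under upper quartile scaling). Srsf5 fell in KO cells from 514 ± 4.39 to 335 ± 2.02 CPM (-0.58 ± 0.030) and Srsf6 had -0.47 ± 0.033, while the kinase gene Clk2, which phosphorylates SR proteins, was higher (0.47 ± 0.059). Long noncoding RNA genes, several of them hosts of small nucleolar RNAs, were lower at 9 of 13 and higher at 3, with a median of -0.47. Snhg1 was at 167, 162 and 165 CPM in WT cells with DMSO, 178 and 179 with MRTX1719, 74.6, 79.4 and 77.9 in KO cells with DMSO and 37.4, 38.9 and 39.9 with MRTX1719. It rose slightly in WT cells and fell in KO cells (-1.11 ± 0.048), a WT call that was lost without WT MRTX1719 replicate 1 or 3. Zfas1 was lower as well (-0.97 ± 0.045), and Snhg3 was higher (1.36 ± 0.14). Variant histone genes had 7 lower and 3 higher of 11 (1 higher without WT MRTX1719 replicate 3 and under upper quartile scaling). The linker histone gene H1f0 fell in KO cells from 839 ± 19.03 to 342 ± 5.25 CPM and was 832 ± 10.6 and 823 ± 11.6 in WT cells (-1.28 ± 0.029, adjusted p = 3.02e-79), and H2ax and H3f3b had -0.95 and -0.74.

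**Figure D4:**
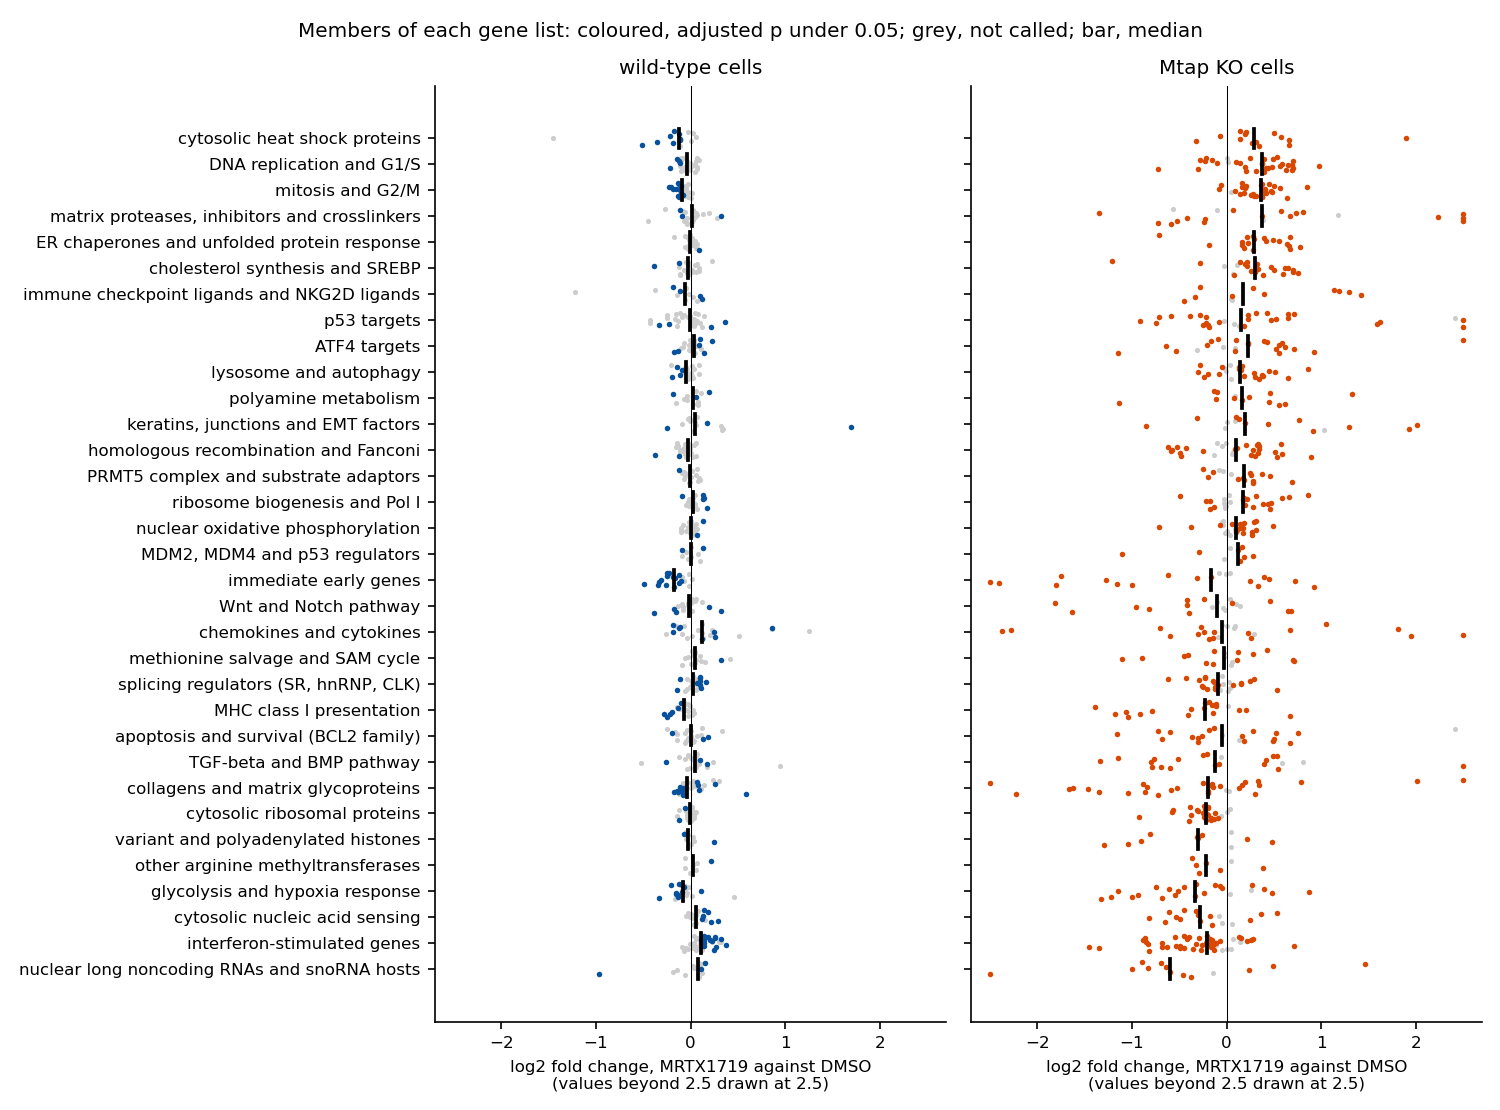
Log2 fold change of MRTX1719 against DMSO for the tested members of 33 gene lists in WT cells (left) and KO cells (right), in the order of the median interaction; each point is a gene, coloured where its adjusted p was under 0.05, and black bars are list medians. WT points lie mostly within a narrow band at 0, with interferon and sensing genes a little to the right and mitosis, heat shock and immediate early genes a little to the left, and KO points spread on both sides.

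Matrix genes, abundant in these cells, had 19 members lower and 8 higher of 31 (5 higher under upper quartile scaling), with a median of -0.20. Besides collagen VI, Col16a1 fell in KO cells from 58.8 ± 2.47 to 12.6 ± 1.06 CPM (-2.11 ± 0.073) and Col3a1 from 5041 ± 196 to 1979 ± 5.97, against 1436 ± 21.1 and 1274 ± 20.4 in WT cells (-1.18 ± 0.027). Col1a1, the main fibrillar collagen, had -0.12. Thbs2, an inhibitor of angiogenesis, rose from 4.23 ± 0.539 to 17.3 ± 0.202 CPM (1.72 ± 0.15). Collagen and decorin genes are also the fibroblast markers, whose sum was 8596 to 8980 CPM in KO cells with DMSO, 4767 to 4844 with MRTX1719, 3008 to 3032 in WT cells with DMSO and 2775 to 2809 with MRTX1719. Of 7 tested markers 5 were called lower and 1 higher, and the part of a shift in cell types was not tested. In bulk RNA, fewer cells of a type and less RNA per cell cannot be told apart. Matrix proteases and crosslinkers had 10 higher and 7 lower of 21 (30.3% and 27.9% of all genes). The stromelysin gene Mmp10 was at 7.72, 8.10 and 7.42 CPM in KO cells with MRTX1719 and at most 1.10 in any other library (3.01 ± 0.37).

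TGF-beta and BMP genes had 6 higher and 12 lower of 21. Of all genes 30.3% were called higher and 27.9% lower, which holds beside the other counts of this paragraph too. Besides Bmp6, the ligand genes Inhba (-1.42 ± 0.039) and Bmp4 (-0.87 ± 0.078) and the common mediator Smad4 (-1.16 ± 0.099) were lower, Inhba going from 358 ± 17.04 to 141 ± 1.52 CPM in KO cells and from 221 ± 6.56 to 233 ± 1.27 in WT cells. Wnt and Notch genes had 4 higher and 7 lower of 19 (2 higher without WT DMSO replicate 2 or WT MRTX1719 replicate 1 and under upper quartile scaling). The Wnt modulator gene Dkk2 fell from 276 ± 4.48 to 88.8 ± 1.99 CPM in KO cells (-1.49 ± 0.043), and Hes1, a Notch target, was at 103, 114 and 105, then 126 and 121 CPM in WT cells, and at 15.8, 14.1 and 15.7, then 7.86, 7.55 and 8.003 in KO cells. Hes1 thus moved up in WT and down in KO cells without overlap (-1.16 ± 0.086), from a KO level far below the WT one. The mesenchymal factor genes Twist2 (0.76 ± 0.071) and Snai1 (0.53 ± 0.11) were higher, in a keratin, junction and EMT list of 15 with 5 higher and 2 lower.

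Chemokine and cytokine genes had 4 higher and 10 lower of 23 tested. The T cell chemokine gene Cxcl10 had 0.25 in WT and -0.13 in KO cells (-0.38 ± 0.039), Ccl2 0.12 and -0.19, and Ccl5, not called in WT cells, 0.14 and -0.15. Csf1, the macrophage growth factor, was lower (-0.61 ± 0.031). Ccl9 rose in KO cells from 7.19 ± 0.222 to 27.6 ± 0.729 CPM (1.43 ± 0.30) and Csf2 from 0.212 ± 0.0934 to 1.34 ± 0.186 (2.46 ± 0.45), the latter from a few counts. Ligands of T and NK cell receptors had 5 higher and 2 lower of 12, and the lower count was 1 to 5 over the other settings (1 without WT DMSO replicate 2, WT MRTX1719 replicate 1, KO DMSO replicate 1 or KO MRTX1719 replicate 1 or 3, and 5 under upper quartile scaling). Pvr, a ligand of TIGIT and DNAM-1, was at 162, 169 and 166 CPM in WT cells with DMSO, 153 and 153 with MRTX1719, 109, 112 and 113 in KO cells with DMSO and 251, 252 and 260.2 with MRTX1719. It fell slightly in WT cells, a call lost without WT MRTX1719 replicate 1 or 3, and rose above every WT library in KO cells (1.30 ± 0.039, adjusted p = 3.44e-64). Its relatives Nectin1 and Nectin2 were higher (1.57 and 0.41), and Cd274, which encodes PD-L1, was lower (-0.51 ± 0.095). Pmel, the mouse gene for gp100, was at 1.01, 1.07 and 0.579 CPM in KO cells with MRTX1719 and 2.05, 2.27 and 1.86 with DMSO (-0.82 ± 0.34, adjusted p = 0.0311). That call was lost without WT DMSO replicate 2, WT MRTX1719 replicate 3, KO DMSO replicate 2 or KO MRTX1719 replicate 3 (-0.71, -0.76, -0.74 and -0.62), and whether these counts include transcripts of the introduced antigen was not tested.

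Immediate early genes, which growth factor signals switch on, were called lower at 14 of 19 members in WT cells and higher at 0 (7 and 11 lower without WT MRTX1719 replicate 1 and 3), and in KO cells lower at 10 and higher at 6. The interaction was called lower at 9 and higher at 8, with a median of 0.0051 (-0.088 under upper quartile scaling). Of all genes 3.91% were called lower and 3.62% higher in WT cells, and 33.6% and 37% in KO cells. In the interaction these shares were 27.9% and 30.3%. Atf3 is counted both here and among the ATF4 targets. Egr1 was at 1121, 1169 and 1124 CPM in WT cells with DMSO, 889 and 907 with MRTX1719, 269, 268 and 262 in KO cells with DMSO and 78.5, 76.6 and 73.5 with MRTX1719. The groups of each line stand apart, and KO cells started far lower. Its log2 change was -1.80 in KO and -0.34 in WT cells (-1.46 ± 0.033), but in CPM it lost 50.0 more in WT cells. Fosb likewise had -2.20 ± 0.080 in folds and a loss 13.9 CPM larger in WT cells, and Fos (-2.29 ± 0.086) fell from 23.1 ± 1.10 to 4.37 ± 0.325 CPM in KO cells. Fosl1, a late Fos relative, and Jund went the other way (0.79 and 0.48).

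Opposite calls in the 2 lines, ranked by the smaller of the 2 effects at 5 CPM or more, were led upward in KO cells by Cryab, Clic5, Dedd2 and Sfn. Clic5, an intracellular channel protein, fell from 18.7 ± 1.40 to 14.8 ± 0.0587 CPM in WT cells and rose from 12.8 ± 0.385 to 25.2 ± 1.32 in KO cells (1.32 ± 0.10). Sfn, the checkpoint protein 14-3-3 sigma, had -0.35 and 0.51, and Dedd2, a death effector protein, -0.39 and 0.45. Downward in KO cells, the proline oxidase gene Prodh had 0.40 in WT and -0.67 in KO cells, Dipk1b 0.40 and -0.78, 9330133O14Rik 0.38 and -0.73, and Zfp580 0.36 and -0.47. The WT calls of Dedd2, Sfn, Dipk1b, 9330133O14Rik and Zfp580 were lost without WT MRTX1719 replicate 1 or 3, and that of Prodh without replicate 1.

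Genes with a larger response in WT than in KO cells had small effects. Rnf213, an interferon-responsive ligase, rose from 672, 675 and 714 to 775 and 784 CPM in WT cells and was 599, 600.0 and 604 and 619, 622 and 627 in KO cells. The WT groups do not overlap (0.18 ± 0.022 in WT and 0.050 ± 0.020 in KO cells; interaction -0.13 ± 0.029). Jup, the junction protein plakoglobin, and Snrnp48, a minor spliceosome protein, fell in WT cells (-0.25 ± 0.041 and -0.24 ± 0.040) and stood at -0.018 ± 0.030 and -0.0096 ± 0.042 in KO cells. Interactions of Oas1g, Mylk, Nsdhl and Nr4a1, at -0.27, -0.20, 0.36 and 0.16, were called in the complete fit and lost under some settings. Without WT DMSO replicate 1 that of Oas1g was -0.19, without WT DMSO replicate 3 those of Mylk and Nsdhl were -0.18 and 0.26, and without KO DMSO replicate 3 that of Nr4a1 was 0.11.

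GSK3326595 at the same dose and time allowed a matched comparison of the 2 inhibitors, the single pair compared. The labels' treatment field gives that name with another last digit in some replicates, while the titles do not. The difference between the inhibitors, KO minus WT, uses no DMSO library and was called at 6870 genes (46.3%), 3593 higher (24.2%) and 3277 lower (22.1%), and at 6806 without KO GSK3326595 replicate 1. Of the 8627 genes called in the dependence on genotype, 5377 (62.3%) were called in the same direction here. That share is the count of a subset and is not independent of the interaction, since both use the same MRTX1719 libraries.

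Islr had 18.0, 18.6 and 17.1 CPM in KO cells with MRTX1719, 68.0, 58.8 and 61.2 with GSK3326595, and 42.4, 41.7 and 44.2 in WT cells with GSK3326595, for a difference of -1.94 ± 0.066 (adjusted p = 1.79e-57). Mdm4 had 52.0, 54.2 and 52.1 CPM in KO cells with MRTX1719, 66.5, 76.1 and 73.2 with GSK3326595, and 97.2, 93.9 and 95.2 in WT cells with GSK3326595 (-0.68 ± 0.050, adjusted p = 6.02e-25). In both genes KO cells with GSK3326595 lie between KO cells with DMSO and with MRTX1719. B2m was at 829, 827 and 827 CPM in WT cells with GSK3326595. In KO cells it was at 485, 488 and 507 with GSK3326595 and at 439.6, 434 and 432 with MRTX1719. Its KO minus WT difference was -0.73 ± 0.029, with WT effects of -0.25 for MRTX1719 and -0.80 for GSK3326595 against the same DMSO libraries. Ifi203 rose with MRTX1719 and fell with GSK3326595 in WT cells (0.21 and -0.19), both against the same DMSO libraries. Its KO minus WT difference was -0.45 ± 0.054. For some genes this KO minus WT difference was not called: Cdc6 had -0.044 (95% interval -0.15 to 0.065, adjusted p = 0.551), Cryab 0.098 (-0.033 to 0.23, adjusted p = 0.234) and Trp53 0.017 (-0.059 to 0.093, adjusted p = 0.755). That does not show that the compounds act alike on them. Cryab had -0.51 ± 0.046 with MRTX1719 and -0.92 ± 0.043 with GSK3326595 in WT cells. In KO cells it had 0.66 ± 0.046 and 0.15 ± 0.048. These values differ within each line, where the compounds were not tested against each other.

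**Figure D5:**
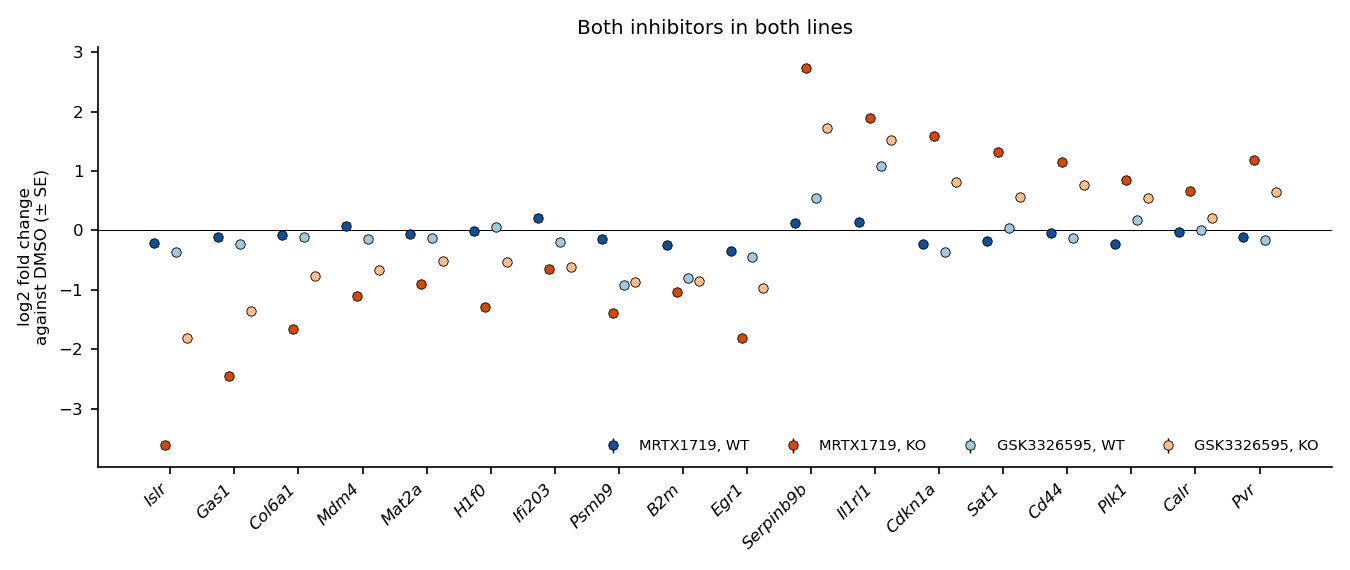
Log2 fold change ± SE against DMSO (vertical; bars smaller than the points are hidden) of 18 genes for MRTX1719 and GSK3326595 in WT and KO cells; the inhibitors share the DMSO libraries of a line. Dark blue points (MRTX1719 in WT cells) lie between -0.34 and 0.21, and orange ones (MRTX1719 in KO cells) between -3.62 and 2.73.

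Finally, the 1779 genes that moved at least 2-fold with MRTX1719 in KO cells were set beside the WT responses, which come from other libraries. The choice of these genes by their KO effect makes the KO medians large. Calls in WT cells rest on 2 libraries with MRTX1719 and 3 with GSK3326595, so their shares are not on equal terms. The 669 that rose (4.51%) had a median effect of 1.42 in KO cells, 0.048 with MRTX1719 in WT cells and 0.40 with GSK3326595 in WT cells. The 1110 that fell (7.48%) had medians of -1.39, -0.032 and -0.15. Called in the same direction were 69 (3.88%) with MRTX1719 in WT cells and 484 (27.2%) with GSK3326595 in WT cells. Called in the opposite direction were 16 (0.899%) and 90 (5.06%). Of all genes 7.53% and 41.1% were called in either direction in WT cells. With MRTX1719 these were 3.62% higher and 3.91% lower, and with GSK3326595 20.1% higher and 21.1% lower. Across the 14835 genes the KO effects had a Pearson r of 0.280 with the WT effects of GSK3326595, a description over genes that share libraries within each effect.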

How the data were processed

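Poly(A) RNA of MC38/gp100 cells was sequenced, and raw counts per gene, deposited by the authors, were the values analysed. The submitters' processing notes name DESeq 1.18.0, Bowtie2 2.1.0, TopHat2 2.0.10 and GRCm39; how genes were counted, with which annotation and strand setting, is not given in the sources used here. The authors' deposited normalized signal served only to pair identifiers with symbols. All 17 MC38 libraries entered 1 fit with edgeR 4.0.16 (R 4.3.3), with TMM scaling, a filter on low counts by group and the robust quasi-likelihood test, and genes were called at an adjusted p under 0.05. The interaction is (KO with MRTX1719 minus KO with DMSO) minus the same in WT cells. SEs are the log2 fold change divided by the square root of F. Totals limit precision at low counts, and intervals cover the spread of the fit only. The code was tested on simulated data.

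Members and lists were chosen with earlier results of these data known. Named genes had a symbol and a called interaction. At a mean of 5 CPM or more they were the 10 most positive and 10 most negative interactions, the 4 smallest p in each direction, and the 4 leading genes with opposite calls and the 4 with larger WT effects in each direction. With no CPM minimum they were up to 4 called members of each list, and, called or not, Mtap, Prmt5, Wdr77, Clns1a, Riok1, Mdm4, Cdkn2a (removed by the filter) and Pmel. Other list members named were chosen after their values were seen, and 2 members are not reported here. Alternatives used DESeq2 1.42.0, limma 3.58.1, other scalings and filters, a replicate block, only the 4 groups compared, and each replicate left out.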

Additional observations from a re-analysis of the deposited data

Results flagged for a closer look

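Called in both lines with opposite signs, and with a called difference between them, were these 25 named genes, given here by their log2 interaction, which is the effect in KO cells minus that in WT cells. Positive values, where KO cells rose and WT cells fell, belonged to Cdkn1a (1.81), Sat1 (1.51), Clic5 (1.32), Pvr (1.30), Cryab (1.17), Atf3 (1.10), Plk1 (1.08), Bok (0.94), Sfn (0.86), Dedd2 (0.85), Hsp90aa1 (0.77), Dnajb1 (0.67), Srsf4 (0.40) and Trp53 (0.21). Negative values, where KO cells fell and WT cells rose, belonged to Dipk1b (-1.18), Hes1 (-1.16), Lum (-1.14), 9330133O14Rik (-1.12), Snhg1 (-1.11), Prodh (-1.07), Ifi203 (-0.87), Zfp580 (-0.82), Bcl2 (-0.82), Tlr3 (-0.79) and Ifih1 (-0.61). Opposite calls were left at 10 of the 25 without WT MRTX1719 replicate 1, at 13 without replicate 3 and at 14 without WT DMSO replicate 2, and DESeq2 called 13 of them so. The calls of Cdkn1a, Clic5, Cryab, Dnajb1, Hes1, Hsp90aa1, Ifi203 and Sat1 in WT cells passed with either WT MRTX1719 library left out.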

How the results depend on the processing

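The interaction was called at 7968 to 8458 genes with 1 library left out, at least 2-fold interactions numbered 1389 to 1466, and KO and compound-by-genotype calls numbered 9887 to 10112 and 6033 to 6806. WT calls fell to 433 without WT MRTX1719 replicate 1 and 510 without replicate 3, and were 799 to 912 without a WT DMSO library. DESeq2 called 7926 interactions and limma 8640. Upper quartile scaling moved the median of all genes by -0.094 and put 41.0% of called interactions higher in KO, against 52.1%. It turned Prmt5 to -0.0086 (adjusted p = 0.883, edgeR). In CPM the signs turned for Inmt (0.244), Fosb (13.9), Egr1 (50.0) and H19 (0.493). Among named genes 14 lost the call under 1 or more settings, 42 values in all. Same-numbered libraries did not deviate together (r from -0.079 to 0.047 over 15 pairs, and from -0.048 to 0.082 over 30 pairs with different numbers), so the numbers were not used as pairs. With a replicate block 8507 interactions, 1010 WT and 10415 KO effects were called. The WT group with MRTX1719 has 2 libraries, which limits every WT call.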
